A study of Mus musculus with 16 samples.

Results

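The liver takes organic anions such as bile acids, bilirubin, conjugated steroid hormones and drugs out of the blood and passes them into bile or back into blood. The 8 genes described here encode carriers of this route: the organic anion transporting polypeptide genes Slco1a1, Slco1a4, Slco1b2, Slco2a1 and Slco2b1, and the efflux pump genes Abcc2, Abcc3 and Abcc4. They were taken by gene symbol from the array annotation, using probe sets with a single symbol and the probe set of highest mean for each gene, and all 8 were found among 19938 genes measured. The set was chosen around Slco1a1, which had been selected on its low level on high-fat diet in Gli2 heterozygous liver. The values of that diet comparison are therefore given as a description. Where members past the threshold are counted there, nothing is read from the count.

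Livers of adult mice were profiled on Affymetrix MoGene 1.0 ST arrays in 4 groups of 4 arrays. The groups were Gli2 heterozygous null mice fed a high-fat diet (Het_HFD), Gli2 heterozygous null mice fed the control diet (Het_control), wild-type mice fed the high-fat diet (WT_HFD) and wild-type mice fed the control diet (WT_control). Gli2 is a transcription factor of the Hedgehog pathway, and each diet was given for 12 weeks. The genotype field of the wild-type arrays reads Gli1_WT, while the study design calls these animals wild type. Sex, strain, diet composition, the cell type that carries the null allele and any other allele or agent shared by all groups are not stated in the sources used here. Each array is labelled as a separate animal by the design, and p-values measure the spread between these arrays.

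All levels are log2 values on the scale of robust multi-array averaging (RMA). A difference of 1 on this scale is a doubling, and levels of different genes are not comparable because each comes from its own probes. The Gli2 probe set did not separate the genotypes. Gli2 ranged over 7.46 to 7.61 in Het_HFD, 7.50 to 8.14 in Het_control, 7.40 to 7.57 in WT_HFD and 7.54 to 7.58 in WT_control, and whether its probes lie in the deleted part is not stated. Hepatocyte markers were high in every array, with array means over 8 measured markers of 13.3 to 13.5. The second Het_control array stood apart, correlating with the other arrays at r = 0.961 to 0.979 over all genes, against 0.990 to 0.997 among the others. Its values were also compressed, with an interquartile range over genes of 1.95, against 2.40 to 2.60 in the others. Many of the results that this array enters are given with and without it, and the others only with it. Because these are bulk tissue arrays, fewer cells of a type and less RNA per cell cannot be told apart.

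Slco1a1 lies in a cluster of related genes on mouse chromosome 6, where Slco1c1, Slco1b2, Gm5724, Slco1a4, Slco1a1, Gm6614, Slco1a6 and Slco1a5 follow each other in the RefSeq annotation of GRCm38.p6. The mouse proteins Oatp1a1 (Slco1a1), Oatp1a4 (Slco1a4) and Oatp1b2 (Slco1b2) sit on the sinusoidal membrane of hepatocytes and take up overlapping sets of bile acids, steroid conjugates and drugs. Slco1a1 is known in mice as a gene of male-biased liver expression that depends on growth hormone secretion, and Abcc3 as a basolateral pump that returns conjugates to blood. The start regions of these 3 liver genes are shown because Slco1a1 carries the largest diet difference among the members and Slco1a4 and Slco1b2 lie in the same cluster. Each window, from RefSeq on GRCm38.p6, runs from 250 bases before to 50 bases after the annotated start and is written in the direction of the gene. Capitals mark matches to AGGTCA (a hexamer of nuclear receptor sites), GTTAAT (a core of HNF1 sites) and TTCNNNGAA (a STAT site), each searched on both strands, and to TATAA on the gene's own strand; no 2 of the different motifs overlap in these windows.
Slco1a1, chr6:141946913-141947212, minus strand: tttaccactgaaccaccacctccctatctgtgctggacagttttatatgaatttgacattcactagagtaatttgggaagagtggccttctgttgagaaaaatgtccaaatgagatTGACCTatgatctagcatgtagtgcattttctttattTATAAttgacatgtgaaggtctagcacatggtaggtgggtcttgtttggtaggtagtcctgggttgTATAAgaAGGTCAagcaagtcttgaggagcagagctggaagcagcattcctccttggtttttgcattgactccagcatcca
Slco1a4, chr6:141856171-141856470, minus strand: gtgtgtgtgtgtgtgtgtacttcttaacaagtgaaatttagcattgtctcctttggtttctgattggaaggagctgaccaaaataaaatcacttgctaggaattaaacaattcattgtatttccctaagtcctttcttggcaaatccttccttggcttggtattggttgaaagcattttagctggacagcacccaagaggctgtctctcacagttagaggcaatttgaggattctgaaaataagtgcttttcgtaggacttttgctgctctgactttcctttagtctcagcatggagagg
Slco1b2, chr6:141629268-141629567, plus strand: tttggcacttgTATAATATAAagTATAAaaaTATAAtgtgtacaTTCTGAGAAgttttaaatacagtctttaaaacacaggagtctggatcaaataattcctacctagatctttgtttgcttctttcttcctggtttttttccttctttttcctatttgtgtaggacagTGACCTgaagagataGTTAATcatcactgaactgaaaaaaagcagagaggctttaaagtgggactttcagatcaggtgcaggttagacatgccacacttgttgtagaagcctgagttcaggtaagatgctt

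The Slco1a1 window held AGGTCA 2 times, with first bases at position -134 on the opposite strand and at -24 on the gene's strand, and TATAA at -97 and -31. It held neither GTTAAT nor TTCNNNGAA. The Slco1b2 window held GTTAAT at -66, AGGTCA on the opposite strand at -81, TTCNNNGAA at -206 and TATAA 4 times between -239 and -219. The Slco1a4 window held none of these letters. Of 32851 RefSeq mouse windows of the same length, 16.3% held AGGTCA, 7.1% GTTAAT, 8.3% TTCNNNGAA and 17.5% TATAA. A match is a description of letters, not a binding site. RefSeq windows were found for 7 of the 8 members. The windows of Slco2a1, Slco2b1, Abcc2 and Abcc4 were also searched. Slco2a1 held TATAA at -29, Abcc2 held AGGTCA at -49, 1 of 2 Abcc4 windows held TTCNNNGAA, and 2 of 3 Slco2b1 windows held TTCNNNGAA. A core of Nrf2 sites, TGACNNNGC (12.4% of all windows), stood in Abcc2 and in both Abcc4 windows, and a core of AhR sites, GCGTG (32.4%), in 1 Abcc4 window. Both were searched on both strands, and no other member window held either.

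Slco1a1, probe set 10548978, had the widest range of the members. Its level was 6.82, 7.06, 6.58 and 6.72 in Het_HFD, against 9.95, 9.39, 9.46 and 10.07 in Het_control. All 4 Het_HFD arrays were below all 4 Het_control arrays. The mean was 6.80 ± 0.20 in Het_HFD and 9.72 ± 0.34 in Het_control (SD, n = 4 each), a difference of -2.92 (SE 0.50), or 7.58-fold lower. Without the second Het_control array the difference was -3.03. The files give no detection call, so whether the low arrays lie at background is not known.

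In wild-type mice Slco1a1 was 8.77, 9.94, 6.91 and 6.84 in WT_HFD, against 10.02, 8.98, 8.61 and 9.06 in WT_control. The third and the fourth WT_HFD arrays lay within the range of the Het_HFD arrays, the second lay among the highest arrays of the study, and the groups overlapped. The SD was 1.51 in WT_HFD and 0.60 in WT_control. The SE of 0.50 pools the spread of all 4 groups, so it is the same for both genotypes. With only the arrays of the contrast, the SE was 0.61 in wild type and 0.16 in heterozygotes. The difference of means was -1.05 (SE 0.50), with a 95% confidence interval of -2.11 to 0.01, and it did not pass the threshold (limma, adjusted p = 0.782). Single arrays moved this value: it was -1.66 without the second WT_HFD array, -0.65 without the third and -0.63 without the fourth, and none of these passed.

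**Figure D1:**
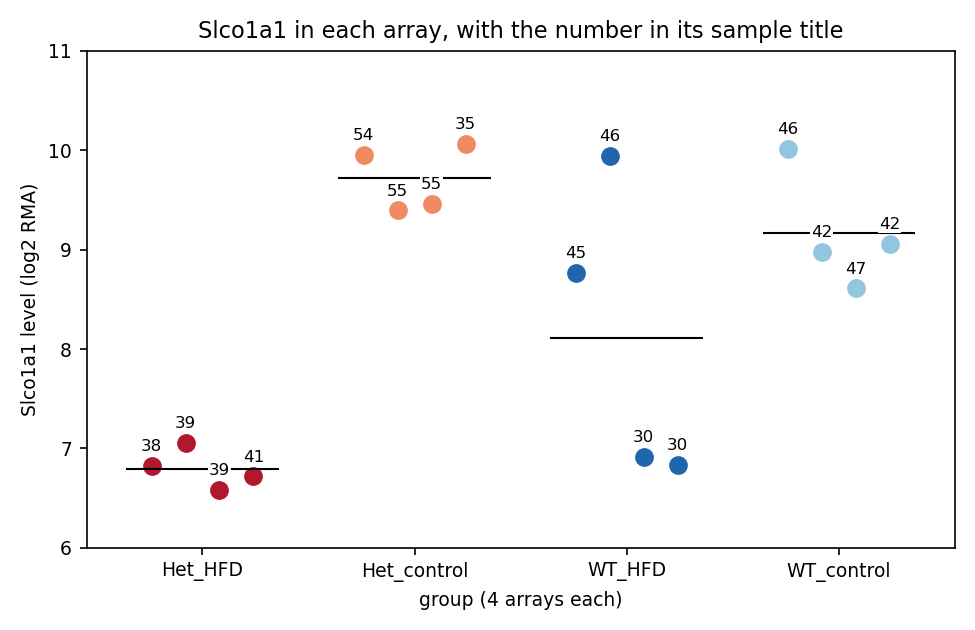
Slco1a1 level (log2 RMA, vertical axis) in each of the 16 arrays by group, with the number in the sample title above each point and the group mean as a line. The 4 Het_HFD arrays lie at 6.58 to 7.06, and the WT_HFD arrays numbered 30 lie at 6.91 and 6.84 while those numbered 45 and 46 lie at 8.77 and 9.94.

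Sample titles carry 11 different numbers whose meaning is not stated, and 5 of them stand on more than 1 array. For Slco1a1, arrays of the same number lay close together in 3 of the 4 groups. The 2 WT_HFD arrays numbered 30 differed by 0.08, the 2 WT_control arrays numbered 42 by 0.08, the 2 Het_control arrays numbered 55 by 0.06 and the 2 Het_HFD arrays numbered 39 by 0.47, which was the whole range of that group. The median of these 4 differences was 0.08, against 0.58 over the 20 other pairs within a group. The mean difference of same-number pairs was 0.18 times that of other pairs for Slco1a1, whereas the median of this ratio over all genes was 1.31 and the other 7 members had ratios above 1, up to 1.83. The pair numbered 55 holds the second Het_control array. It had the largest same-number difference for Slco1a4 (0.73), Abcc3 (0.40) and Slco2b1 (0.36), but not for the other members. That array also enters other pairs of its group, and the ratios were not computed without it. Number 46 stood in both wild-type diets, and there Slco1a1 was 9.94 in the WT_HFD array and 10.02 in the WT_control array. No number stood in both diets of the heterozygotes, so in that genotype number and diet cannot be told apart. For diet in wild type, averaging arrays of the same number within a group gave -0.69 (limma, adjusted p = 0.751), against -1.05 over single arrays. Averaging was a choice made after the data had been examined. Keeping all arrays and treating the number as a random block gave -1.37 (SE 0.54; limma, adjusted p = 0.344). The correlation of same-number arrays estimated for that block over all genes was negative, at -0.37. The averaged and the block value lie on opposite sides of -1.05, and neither passed the threshold.

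The genotype comparisons of Slco1a1 share arrays with the diet comparison that chose the gene, so their p-values are not independent of that choice. Between genotypes, Slco1a1 was lower in Het_HFD than in WT_HFD by value, at 6.80 ± 0.20 and 8.12 ± 1.51 (SD, n = 4 each), and the groups overlapped because of the WT_HFD arrays at 6.91 and 6.84. The difference was -1.32 (SE 0.50; limma, adjusted p = 0.9996), and was -0.71 without the second WT_HFD array. On control diet it was 9.72 ± 0.34 in Het_control and 9.17 ± 0.60 in WT_control, a difference of 0.55 (SE 0.50; limma, adjusted p = 0.506). The difference between the diet effects of the genotypes was -1.87 (SE 0.71). It contains the difference on which the gene was chosen and is given as a description, with no test. It ranged over -2.30 to -1.26 when each array was left out in turn, the smallest being without the second WT_HFD array. Whether the diet effect on Slco1a1 differed between genotypes was not tested independently of that choice. In order of mean level the groups ran Het_control, WT_control, WT_HFD and Het_HFD. Apart from the 2 diets of the heterozygotes, given as a description, and Het_HFD and WT_control, which were not compared, no pair of groups sharing a genotype or a diet differed past the threshold for this gene.

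The other measured genes of the cluster differed far less in value, 5 of 6 of them lower on high-fat diet in heterozygotes. Mean levels in Het_control, without its second array, were 6.65 for Slco1c1, 5.83 for Gm6614, 6.39 for Slco1a6 and 6.15 for Slco1a5. They were 11.91 for Slco1a4 and 12.03 for Slco1b2. Levels of different genes are not comparable and the files give no detection call, so how far any of these genes could fall is not known. Slco1a4, next to Slco1a1, differed by -0.02 (SE 0.14) between Het_HFD and Het_control, or -0.15 without the second Het_control array, and by 0.02 (SE 0.14) between WT_HFD and WT_control. Slco1b2 differed by 0.11 (SE 0.08) in heterozygotes, or 0.04 without that array, and by 0.14 (SE 0.08) in wild type. Slco1c1 differed by -0.20 in heterozygotes, or -0.09 without that array, and by -0.09 in wild type. On the other side, Gm6614, Slco1a6 and Slco1a5 had differences of -0.21, -0.20 and -0.28 in heterozygotes, or -0.17, -0.12 and -0.19 without that array, and 0.16, -0.14 and -0.11 in wild type, and none of these neighbours was called in either genotype. The measured genes flanking the cluster, Pde3a and Iapp, differed by -0.02 and -0.05 in heterozygotes, or 0.03 each without that array. The genes of the cluster are close relatives, and binding of a probe to a neighbour's RNA was not tested.

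**Figure D2:**
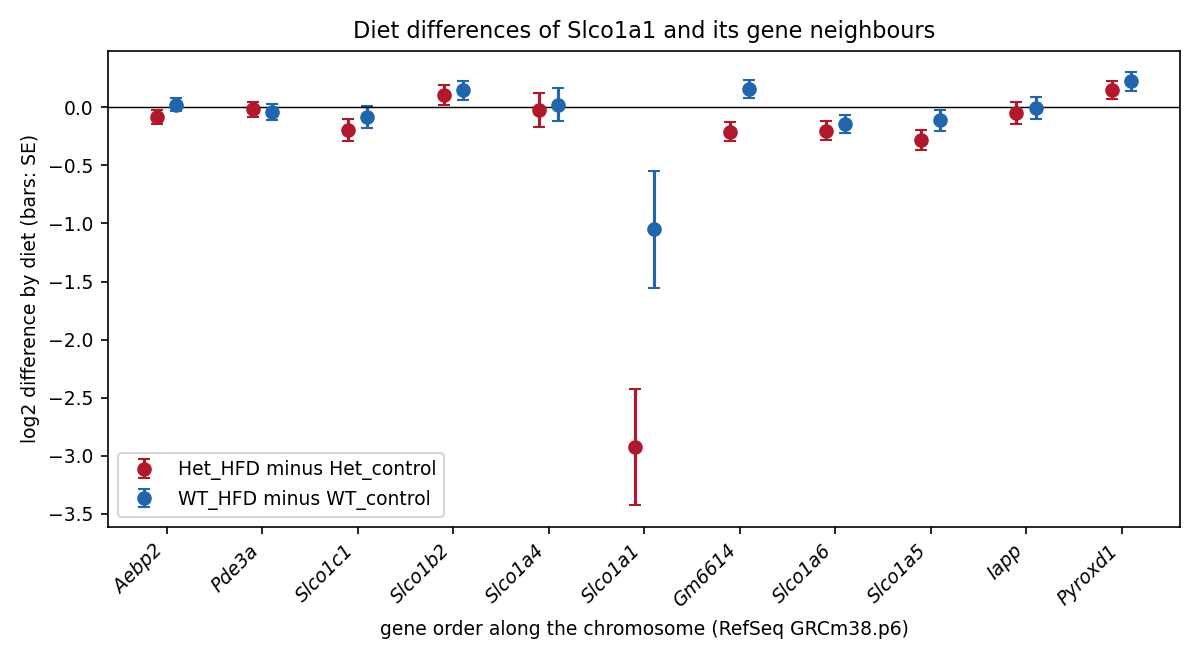
Diet difference on the log2 scale (vertical axis; points are differences of means, bars 1 SE) of Slco1a1 and 10 measured neighbours in chromosome order (horizontal axis), for Het_HFD minus Het_control and WT_HFD minus WT_control. Slco1a1 stands at -2.92 and -1.05, and the other 10 genes lie between -0.28 and 0.22.

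Abcc3, probe set 10389894, was the other member that differed on high-fat diet in heterozygotes. Its level was 12.21, 12.08, 12.36 and 12.10 in Het_HFD, against 11.88, 11.34, 11.74 and 11.91 in Het_control. All Het_HFD arrays were above all Het_control arrays, and the second Het_control array was the lowest of the study. The difference was 0.47 (SE 0.11), and 0.34 without that array. It lay close to the threshold: it passed in 8 of 25 alternatives, and failed in 14 of the 16 that left out 1 array, including each of the WT_control arrays, where the difference stayed at 0.47. In wild type Abcc3 was 12.11, 12.18, 12.39 and 12.45 in WT_HFD, against 11.84, 11.91, 11.92 and 11.71 in WT_control. Here too no WT_HFD array lay below a WT_control array. The difference was 0.43 (SE 0.11), with a 95% confidence interval of 0.20 to 0.67 before adjustment, and did not pass over all genes (limma, adjusted p = 0.363). Without the second Het_control array, which enters this contrast only through the shared estimate of spread, the adjusted p was 0.0727 by limma. The diet effects of the genotypes differed by 0.03 (SE 0.16; limma, adjusted p = 0.938), or by -0.09 without that array. Whereas Slco1a1 in the WT_HFD array numbered 46 was near its WT_control value, Abcc3 was 12.18 in that array and 11.84 in the WT_control array of the same number.

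**Figure D3:**
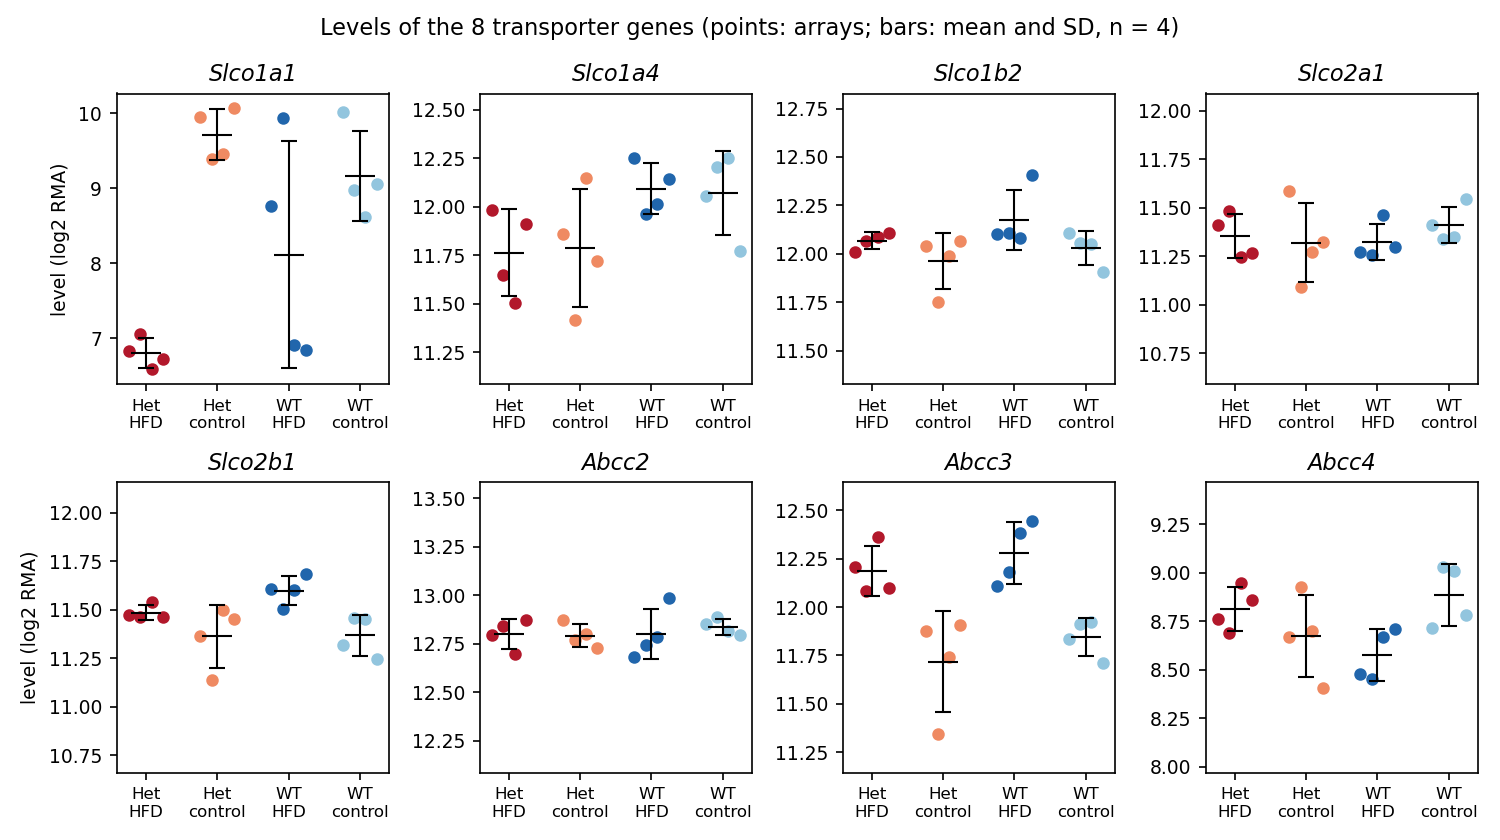
Levels of the 8 transporter genes (log2 RMA, vertical axes that differ between panels) in Het_HFD, Het_control, WT_HFD and WT_control. Points are arrays and bars are the mean and SD (n = 4); Slco1a1 spans 6.58 to 10.07, and Abcc3 is higher on high-fat diet in every array of both genotypes, at 12.08 to 12.45 against 11.34 to 11.92.

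Slco2b1 encodes Oatp2b1, an uptake carrier of steroid sulphates. It was 11.61, 11.50, 11.60 and 11.68 in WT_HFD, against 11.32, 11.46, 11.45 and 11.24 in WT_control. All WT_HFD arrays were above all WT_control arrays. The difference was 0.23 (SE 0.08; limma, adjusted p = 0.567). In heterozygotes it was 11.47, 11.46, 11.54 and 11.46 in Het_HFD, against 11.36, 11.13, 11.50 and 11.45 in Het_control. These groups overlapped, and the difference was 0.12 (SE 0.08), or 0.05 without the second Het_control array.

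Abcc4 encodes Mrp4, a basolateral pump for bile acids, conjugates and cyclic nucleotides. Its level was 8.48, 8.45, 8.67 and 8.71 in WT_HFD, against 8.72, 9.03, 9.01 and 8.78 in WT_control. All WT_HFD arrays were below all WT_control arrays, and the difference was -0.31 (SE 0.10; limma, adjusted p = 0.575). In heterozygotes the value ran the other way. Abcc4 was 8.76, 8.69, 8.95 and 8.86 in Het_HFD, against 8.67, 8.92, 8.70 and 8.41 in Het_control, with overlap and a difference of 0.14 (SE 0.10), which was 0.22 without the second Het_control array and 0.05 at the lowest when another array was left out. The difference between the diet effects was 0.45 (SE 0.15), and 0.53 without the second Het_control array. It did not pass (limma, adjusted p = 0.448).

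Slco1a4 and Slco1b2 showed no call in any comparison. Slco1a4 was 11.98, 11.65, 11.51 and 11.91 in Het_HFD, 11.86, 11.42, 12.15 and 11.72 in Het_control, 12.25, 11.96, 12.02 and 12.14 in WT_HFD and 12.05, 12.20, 12.25 and 11.77 in WT_control. By value it was lower in heterozygotes on both diets, by -0.33 (SE 0.14; limma, adjusted p = 0.9996) between Het_HFD and WT_HFD and by -0.28 (SE 0.14; limma, adjusted p = 0.325) between Het_control and WT_control. The second of these was -0.16 without the second Het_control array. Slco1b2, whose product takes up bile acids and conjugated bilirubin in mice, ranged over 12.01 to 12.11 in Het_HFD, 11.75 to 12.07 in Het_control, 12.08 to 12.41 in WT_HFD and 11.90 to 12.11 in WT_control.

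Abcc2 and Slco2a1 varied little. Abcc2 encodes Mrp2, the canalicular pump that moves conjugated bilirubin into bile. It ranged over 12.70 to 12.87 in Het_HFD, 12.73 to 12.87 in Het_control, 12.68 to 12.99 in WT_HFD and 12.79 to 12.89 in WT_control, and its diet difference was 0.01 (SE 0.07) in heterozygotes, or 0.0023 without the second Het_control array, and -0.04 (SE 0.07) in wild type. The 95% confidence interval in wild type, -0.18 to 0.11, bounds the difference. Slco2a1 encodes a prostaglandin carrier known from endothelial cells. It ranged over 11.25 to 11.48 in Het_HFD, 11.09 to 11.59 in Het_control, 11.26 to 11.46 in WT_HFD and 11.34 to 11.54 in WT_control. Its diet difference was 0.03 (SE 0.09) in heterozygotes, or -0.04 without the second Het_control array, and -0.09 (SE 0.09) in wild type. Of 13 endothelial markers none was called for diet in either genotype, with medians of 0.09 in heterozygotes, or -0.01 without the second Het_control array, and -0.09 in wild type.

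**Figure D4:**
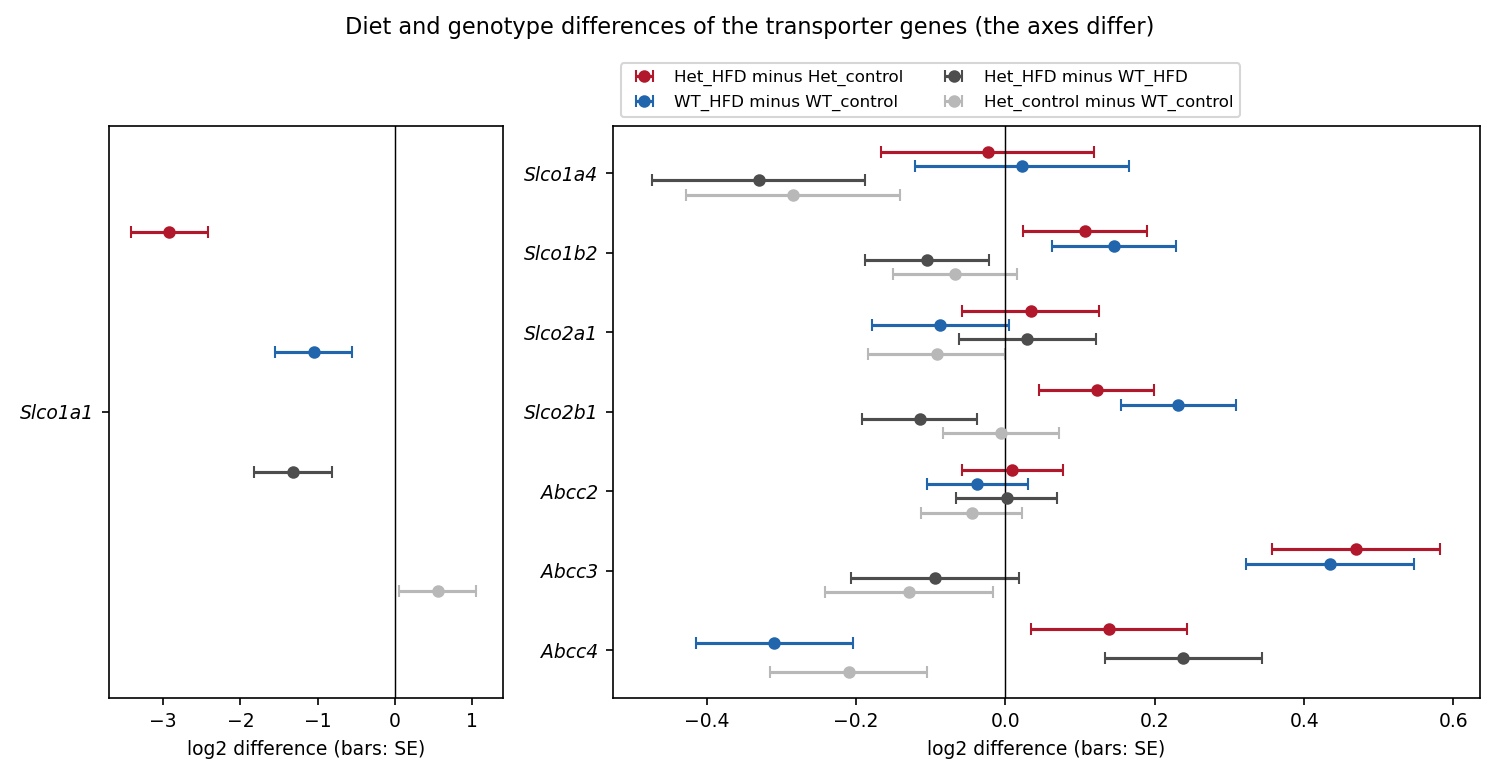
Differences of means on the log2 scale (horizontal axes; bars 1 SE) of Slco1a1 (left, own axis) and the other 7 genes (right) for Het_HFD minus Het_control, WT_HFD minus WT_control, Het_HFD minus WT_HFD and Het_control minus WT_control. Abcc3 lies at 0.47 and 0.43 for diet in the 2 genotypes, and Abcc4 at 0.14 in heterozygotes and -0.31 in wild type.

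Counted over the set, 2 of 8 members were called between Het_HFD and Het_control at an adjusted p under 0.05, Abcc3 higher and Slco1a1 lower. Of all genes 2.22% were called there, 442 of 19938, and nothing is read from the members' count because that comparison chose the set. Both were also the members whose groups did not overlap, a property of 13.7% of all genes. Between WT_HFD and WT_control no member and 0% of all genes were called by limma, while 3 members and 1282 genes had an unadjusted p under 0.05. There 3 of 8 members had groups that did not overlap, Abcc3 and Slco2b1 higher and Abcc4 lower, against 8.5% of all genes. With limma array weights, which gave the second Het_control array a weight of 0.07, Abcc3 (0.38; adjusted p = 0.0289) and Slco2b1 (0.23; adjusted p = 0.0495) were called in wild type. In that setting 219 of 19938 genes were called.

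For genotype, no member was called between Het_HFD and WT_HFD, where 0.00502% of all genes were called (the single gene Ctse), or between Het_control and WT_control, where 0% were. No member's genotype groups were free of overlap on either diet, against 3.75% of all genes on high-fat diet and 6.12% on control diet. Before adjustment, limma's p was under 0.05 for 3 members and 711 genes on high-fat diet and for 0 members and 3135 genes on control diet. The 3 members were Slco1a4, Abcc4 and Slco1a1, whose Het_HFD arrays are among those it was chosen on. The test of whether the diet effects differ called 0 members and 0% of all genes, with an unadjusted p under 0.05 for 2 members (Slco1a1, whose value contains the difference it was chosen on, and Abcc4) and 1621 genes. Nothing is read from the p of Slco1a1 in these counts. The median difference of the members and of all genes was 0.07 and -0.05 for diet in heterozygotes, -0.01 and -0.01 for diet in wild type, -0.10 and 0.01 for genotype on high-fat diet, and -0.08 and 0.04 for genotype on control diet. Without the second Het_control array the members' median was 0.02 for diet in heterozygotes and -0.01 for genotype on control diet.

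Genes whose level ran most like Slco1a1 over the 16 arrays were Zbtb16 (Pearson r = 0.89, Spearman 0.80), Mycn (0.89 and 0.84), St3gal5 (0.89 and 0.87), Serpina12 (0.88 and 0.77) and Arsg (0.88 and 0.81). These arrays share 4 groups and the numbers in their titles, so the values are descriptions. Zbtb16 encodes a zinc finger transcription factor. It was 9.90, 9.60, 9.85 and 9.70 in Het_HFD, 11.12, 11.53, 11.76 and 11.20 in Het_control, 10.99, 11.10, 9.94 and 10.06 in WT_HFD and 10.87, 10.51, 10.94 and 10.82 in WT_control. As with Slco1a1, the third and the fourth WT_HFD arrays lay near the Het_HFD arrays. The correlation of deviations from group means was 0.66 for Zbtb16 and 0.60 to 0.74 for the other 4. Slco1a1 spread most in WT_HFD (SD 1.51, against 0.20 to 0.60 in the other groups). That group, where 2 arrays share the number 30, therefore weighs most in such correlations with Slco1a1, here and below.

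The most opposite gene was Krt23, which encodes a keratin, with r = -0.96 (Spearman -0.87) and -0.90 for deviations from group means. Krt23 was 8.36, 8.24, 8.25 and 7.98 in Het_HFD, against 7.20, 7.32, 7.14 and 7.18 in Het_control. In wild type it was 7.57, 7.16, 8.37 and 8.43 in WT_HFD, against 7.09, 7.19, 7.79 and 7.29 in WT_control. The 2 WT_HFD arrays with the lowest Slco1a1 had the highest Krt23 of all 16 arrays, and the WT_control array with the highest Krt23 was the one with the lowest Slco1a1. Lonrf3 and Lrit2 followed, each at r = -0.87.

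Among the members, Abcc3 ran with Slco2b1 (r = 0.87; 0.79 for deviations from group means) and with Slco1b2 (0.79 and 0.73). The second Het_control array was the lowest of the study for all 3 genes, and without it r was 0.79 and 0.65. Slco1a1 and Abcc3 were opposite over all arrays (r = -0.68), less so within groups (-0.30). Over all genes, those most like Abcc3 were Gbp11 (0.94), Pdk2 (0.94) and Cd1d1 (0.94).

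**Figure D5:**
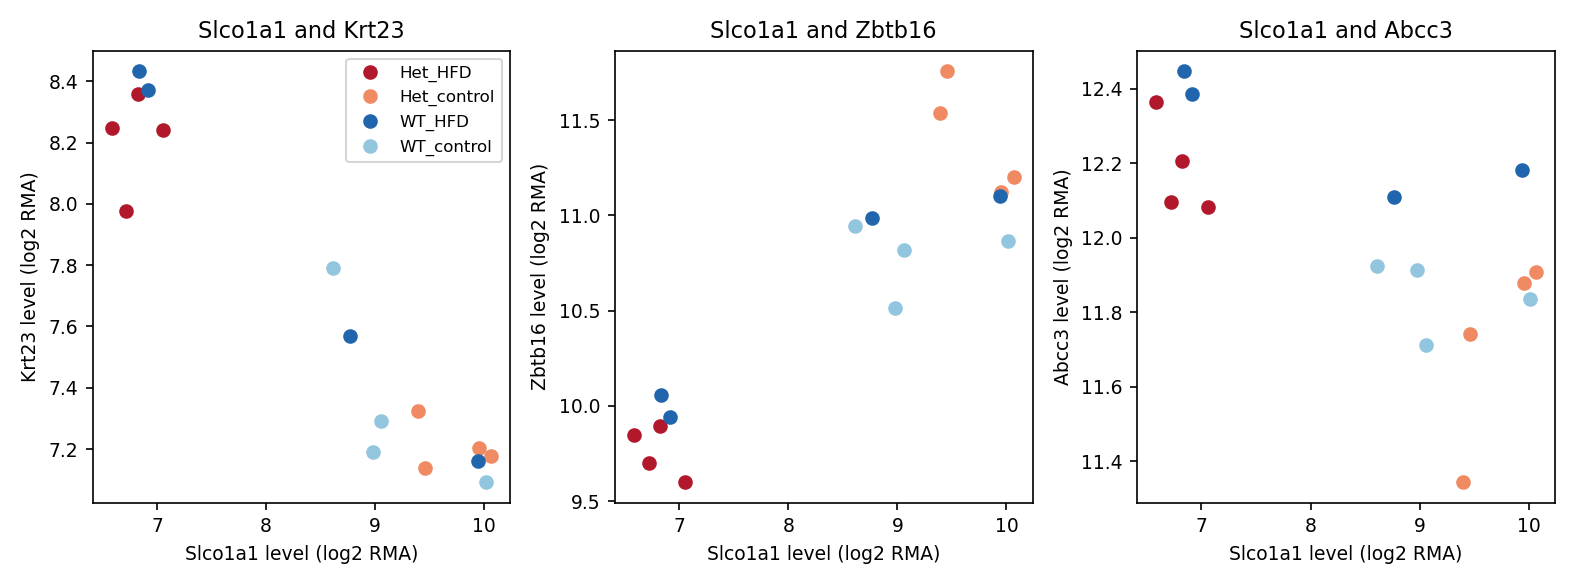
Slco1a1 level (log2 RMA, horizontal axes) against the levels of Krt23, Zbtb16 and Abcc3 (log2 RMA, vertical axes); each point is 1 of 16 arrays, coloured by group. Correlations are -0.96, 0.89 and -0.68, and the third and the fourth WT_HFD arrays lie near the Het_HFD arrays for Krt23 and Zbtb16.

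Other transporter genes did not pass the test for diet in either genotype. Of 10 further Slco genes measured none was called. Their median difference was -0.18 in heterozygotes, -0.08 without the second Het_control array, and -0.05 in wild type. Of 8 further Abcc genes none was called, with medians of -0.14 in heterozygotes, -0.08 without that array, and -0.01 in wild type. Of 11 measured uptake carriers outside these families, such as the sodium-dependent bile acid carriers, none was called. The largest difference among them was in Slc10a2, a bile acid carrier best known from ileum and bile duct. Slc10a2 averaged 9.28 ± 0.41 in Het_HFD and 8.11 ± 0.88 in Het_control, a difference of 1.17 (SE 0.31), and 8.72 ± 0.25 in WT_HFD and 7.93 ± 0.26 in WT_control (SD, n = 4 each), a difference of 0.80 (SE 0.31; limma, adjusted p = 0.647). Of 11 other efflux genes none was called. The largest differences in heterozygotes were in Abcb1a, at 0.51 (SE 0.13), and Abcg2, at 0.45 (SE 0.12), both drug pumps, with 0.11 and 0.13 in wild type. Without the second Het_control array the heterozygote differences were 0.45 for Abcb1a and 0.31 for Abcg2. With all arrays, Abcb1a, Abcg2 and Slc10a2 lay just short of the threshold in heterozygotes (limma, adjusted p = 0.0525, 0.0525 and 0.0553). Abcc3 lay just past it.

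Of 16 measured regulators of transporter genes, nuclear receptors and partner factors, none was called for diet in either genotype. Nr0b2, a corepressor in bile acid feedback, had the largest differences, -0.49 (SE 0.26) in heterozygotes and -0.56 (SE 0.26; limma, adjusted p = 0.776) in wild type. Among 14 measured targets of the xenobiotic receptors CAR and PXR, 2 were called higher in heterozygotes and none lower, with a list median of 0.38, or 0.29 without the second Het_control array. These were Cyp3a16 (1.60, SE 0.31), a cytochrome P450 of steroid and drug oxidation, and Aldh1a1 (0.67, SE 0.15), a retinal dehydrogenase. Without the second Het_control array Aldh1a1 differed by 0.54 and was not called. Over all 19938 genes, 174 were called in heterozygotes without that array, against 442 (2.22%) with it. In wild type none of the 14 was called, and the median was 0.14. Of 16 measured Nrf2 targets, Aox1 (0.57, SE 0.12) and Nqo1 (0.64, SE 0.14), both oxidoreductases, were called higher in heterozygotes and none without the second Het_control array. Aox1 and Nqo1 differed by 0.51 and 0.59 without that array. The list median was 0.35, or 0.21 without it, and 0.05 in wild type, where none was called. Of 17 prostaglandin genes and 4 genes of bilirubin production and conjugation none was called in either genotype.

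Because Slco1a1 is male-biased in mouse liver, sex-biased genes were counted. The share called over all 19938 genes was 2.22% for diet in heterozygotes and 0% in wild type. Of 13 measured male-biased genes, 1 was called lower and none higher in heterozygotes, and the list median was -0.02, or -0.06 without the second Het_control array. It was Hsd3b5, a steroid dehydrogenase, with 6.73, 6.78, 6.58 and 6.80 in Het_HFD, against 8.10, 8.51, 7.97 and 7.43 in Het_control. All Het_HFD arrays were below all Het_control arrays, and the difference was -1.28 (SE 0.22), or -1.11 without the second Het_control array. In wild type Hsd3b5 was 6.87, 7.67, 7.001 and 6.78 in WT_HFD, against 8.34, 7.69, 7.37 and 7.82 in WT_control. These groups overlapped, and the difference was -0.72 (SE 0.22; limma, adjusted p = 0.489). Of 15 measured female-biased genes, Cyp3a16 and Hao2 (0.72, SE 0.17) were called higher and Sult3a1 (-1.498, SE 0.33) lower in heterozygotes, and none in wild type. The list medians were 0.34 in heterozygotes, or 0.29 without the second Het_control array, and 0.10 in wild type. Without that array Hao2 differed by 0.49 and Sult3a1 by -1.67 in heterozygotes. The sex of each animal is not given.

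Markers of other cells were measured beside these results. Over all 19938 genes, 442 (2.22%) were called for diet in heterozygotes, or 174 without the second Het_control array, and 0 in wild type. Of 12 macrophage markers 6 were called higher in heterozygotes, 3 without the second Het_control array. Their array means ran from 10.1 to 10.4 in Het_HFD, 9.60 to 10.03 in Het_control, 9.75 to 10.3 in WT_HFD and 9.96 to 10.1 in WT_control, and none was called in wild type. Of 9 stellate cell markers, Lrat (0.96, SE 0.23) was called higher in heterozygotes, but not without the second Het_control array, where it differed by 0.76. None of the measured markers of hepatocytes (8), bile duct cells (7), lymphocytes (9), kidney tubule (8), gallbladder and gut (9), exocrine pancreas (6) or adipose tissue (6) was called for diet in either genotype. Hepatocyte markers had medians of 0.00 in heterozygotes, or -0.03 without the second Het_control array, and -0.01 in wild type. Their array means lay at 13.4 to 13.5 in Het_HFD, 13.3 to 13.5 in Het_control, 13.4 to 13.5 in WT_HFD and 13.4 to 13.5 in WT_control. Slco1a1 spanned 6.58 to 10.07. The highest value in the data was 14.57, and whether markers at such levels would show a change in hepatocyte share was not tested. Bile duct cells also carry Abcc3, and their markers' array means were 7.55 to 7.74 in Het_HFD, 7.71 to 7.90 in Het_control, 7.59 to 7.68 in WT_HFD and 7.64 to 7.88 in WT_control, with overlap between diets in both genotypes. The part of macrophages or bile duct cells in any member's difference was not tested.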

How the data were processed

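The deposited table holds log2 values of the authors; the submitters' processing notes name RMA and Affymetrix Expression Console. The values run from 3.09 to 14.57. RMA corrects background, quantile-normalizes and summarizes probes, so a shift common to all genes is mostly removed. The second Het_control array nevertheless kept a narrower spread of values than the others. Arrays carry no read depth, and their number limits the precision. Of 35556 probe sets, 21789 had a single symbol and gave 19938 genes, 1 probe set each; 1621 probe sets with several symbols were left out. Groups come from the genotype and diet labels. A linear model over all 16 arrays, 1 mean per group, was fitted with limma 3.58.1 (statmod 1.5.0) in R 4.3.3. Genes were called at a Benjamini-Hochberg adjusted p under 0.05 over all genes, and the procedure was tested on simulated data. The members and all gene lists were chosen with earlier results of these data known. Named from other lists were up to 3 called genes, or up to 2 with the largest differences, and for likeness the 5 highest and 3 lowest correlations with Slco1a1. Alternatives left out each array, weighted arrays, changed moderation, normalization, filter, adjustment set, probe set choice and the arrays in the fit, or treated title numbers as a block or averaged them.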

Additional observations from a re-analysis of the deposited data

Results flagged for a closer look

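In 32 groups of 4 arrays, 8 genes by 4 groups, 2 held an array whose gap to its nearest neighbour exceeded Dixon's 95% critical value as a share of the group's range, and chance gives about 1 in 20. For Slco1b2 in WT_HFD the fourth array stood high at 12.41, against 12.08 to 12.11 in the other three, a gap of 0.915 of the range. For Slco2b1 in Het_HFD the third array stood high at 11.54, against 11.46 to 11.47 in the other three, a gap of 0.847 of the range. Both groups had a narrow range, 0.32 and 0.08 on the log2 scale.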

How the results depend on the processing

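No paired analysis was possible because the groups compared share fewer than 2 title numbers: only number 46 stands in both groups of a comparison, and array numbers within a group follow record order. The number of members called for diet in heterozygotes, 2 as reported, was 1 to 2 when each array was left out in turn, with 2 only without the fourth Het_control or the fourth WT_HFD array. It was 1 with all probe sets in the adjustment, with only the arrays of the contrast, and with same-number arrays averaged. Over the 25 alternatives the difference was -3.03 to -2.81 for Slco1a1 and 0.34 to 0.53 for Abcc3, as descriptions. The genes called there over the whole table ranged from 7, with only the arrays of the contrast, to 6938, with title numbers as a random block, whose consensus correlation was negative at -0.37; 442 were called as reported, 3446 without the fourth Het_control array, 1067 with array weights, and 45 to 387 without any one of the other arrays. For diet in wild type, array weights gave 2 members against 0, and 219 genes of the whole table against 0. No member was called for genotype or for the difference between diet effects under any alternative.

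Values close to 0 changed sign in these cases, and the cause was not tested. For diet in heterozygotes, Slco2a1 was -0.027 with array weights, -0.045 with repeated quantile normalization and -0.016 with same-number arrays averaged, Abcc2 was -0.061 with repeated quantile normalization, and Slco1a4 was 0.037 with averaging. With averaging, Slco1a4 was -0.00042 for diet in wild type and 0.038 for the difference between diet effects, and Slco2b1 was 0.0032 for genotype on control diet. For genotype on control diet, Slco2b1 was 0.076 with array weights and 0.067 with repeated quantile normalization, which also gave 0.011 for Slco1b2 and 0.027 for Abcc2. Abcc2 was -0.025 for genotype on high-fat diet with the random block. For the difference between diet effects, Abcc3 was -0.019 with array weights and -0.019 with repeated quantile normalization, and Abcc2 was -0.013 with the latter. When each array was left out in turn, the ranges were -0.15 to 0.098 (Slco1a4), -0.041 to 0.12 (Slco2a1) and -0.014 to 0.044 (Abcc2) for diet in heterozygotes; -0.077 to 0.082 (Slco1a4) and -0.099 to 0.0012 (Abcc2) for diet in wild type; -0.11 to 0.0036 (Slco1b2) and -0.052 to 0.070 (Slco2b1) for genotype on control diet; -0.037 to 0.063 (Abcc2) and -0.014 to 0.075 (Slco2a1) for genotype on high-fat diet; and -0.17 to 0.075 (Slco1a4), -0.11 to 0.039 (Slco1b2) and -0.090 to 0.098 (Abcc3) for the difference between diet effects. Of 2499 list medians under the alternatives, 78 moved by more than the spread between arrays. With 4 arrays a group and no detection calls, small differences and levels near background are not resolved.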
